A study of Homo sapiens with 15 samples.

Results

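Cholesterol and fatty acid synthesis genes encode the enzymes that build cholesterol and unsaturated fatty acids from acetyl-CoA, and the regulators that set how strongly those enzymes are transcribed. The 36 genes described here were chosen by symbol, from a list of enzymes and regulators of these pathways, and all 36 were found among the 33158 genes of the deposited expression table. The study sequenced RNA from 3 human breast cancer cell lines, all triple negative, that is, lacking estrogen receptor, progesterone receptor and raised HER2. In SUM149PT (SUM149 in the labels) and HCC1937, FACS separated CD44+CD24-/low cells, called cancer stem cells (CSCs), from the remaining cells, called non-CSCs. SUM159PT (SUM159 in the labels) was sequenced without sorting and was treated as CSCs by the study. Each of the 5 groups has 3 libraries, 15 in all. SUM149PT and SUM159PT were grown in an F12-based medium and HCC1937 in RPMI, both with serum. In comparisons with HCC1937, line and medium therefore cannot be told apart. SUM159PT has no non-CSC partner, so for that line the absence of sorting cannot be told apart from the line itself. The labels do not say that the 3 libraries of a group came from separate cultures, so every p-value measures only the spread between these samples, which may be technical.

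Cells raise cholesterol and fatty acid synthesis through the SREBP transcription factors, made from SREBF1 and SREBF2, which are held as inactive precursors in the membrane of the endoplasmic reticulum. SCAP carries the precursors to the Golgi for cleavage when membrane sterols run low, and INSIG1 retains SCAP when sterols are plentiful. The released factors enter the nucleus and turn on most enzymes of both pathways, and many tumour cells depend on this internal supply of lipid for growth.

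Values are FPKM, fragment counts scaled to transcript length and to the fragments mapped in the library, as the authors deposited them. Read counts were not used here, so the depth behind each value is unknown and no counting interval can be given. The FPKM of a library summed to 291276 to 366532 in the 12 sorted libraries and to 634746 to 652082 in SUM159PT, so shares of FPKM differ from FPKM between SUM159PT and the sorted lines. Correlations between libraries of a group lay between 0.972 and 0.990 on the log2 scale, and 0 pairs of libraries were identical.

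CD24, the marker of the negative gate, followed the labels in both lines. It stood at 7.97, 7.64 and 7.61 FPKM in SUM149PT CSCs and at 147, 137 and 134 in non-CSCs, and at 23.6, 22.5 and 23.9 in HCC1937 CSCs and 166, 141 and 142 in non-CSCs. CD44, the hyaluronan receptor used for the positive gate, stood at 83.5, 82.9 and 86.8 FPKM in SUM149PT CSCs against 67.0, 65.3 and 61.4 in non-CSCs, and at 113, 100.4 and 106 against 96.0, 95.1 and 102 in HCC1937, where the log2 fold change was 0.12 (adjusted p = 0.314, limma). Of 5 epithelial markers, 3 were low in SUM159PT: EPCAM, an epithelial adhesion protein, at 0.0683, 0.0486 and 0.0233 FPKM, CDH1, E-cadherin, at 0.0457, 0.0701 and 0.0886, and the keratin KRT19 at 0.286, 0.428 and 0.530. The keratins KRT8, at 134, 130.4 and 131 FPKM, and KRT18, at 156, 145 and 158, were not low there. Both non-CSC groups carried EPCAM, at 60.3, 53.8 and 52.1 FPKM in SUM149PT and 93.1, 83.3 and 74.5 in HCC1937.

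Levels of the members differed between groups. The median member, averaged over the libraries of a group, stood at 45.8 FPKM in SUM149PT non-CSCs, 19.1 in SUM149PT CSCs, 20.03 in HCC1937 non-CSCs, 21.1 in HCC1937 CSCs and 9.41 in SUM159PT. SCD, the desaturase that makes oleate, had the highest mean of the members over the 15 libraries, 212.2 FPKM, followed by FASN, the fatty acid synthase, at 147, and MSMO1, a sterol methyl oxidase, at 95.7. INSIG1, DHCR7, FDPS, ELOVL1 and SQLE followed with means of 84.4, 80.0, 69.6, 63.4 and 50.7 FPKM, and 29 members averaged 10 FPKM or more. These means owe much to SUM149PT non-CSCs, and the order differs elsewhere: FASN exceeded SCD in SUM159PT, FDPS exceeded FASN in HCC1937 CSCs and SQLE exceeded FASN in SUM149PT CSCs. ACACA, the acetyl-CoA carboxylase of fatty acid synthesis, was the exception at the low end: its highest value in any library was 0.109 FPKM, so it was not tested, and nothing can be said of its change. Libraries of a group were close to each other, with a median coefficient of variation over members between 4.38% and 7.02% by group, ELOVL2 in SUM149PT CSCs reaching 97.8% at values near 0.

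**Figure D1:**
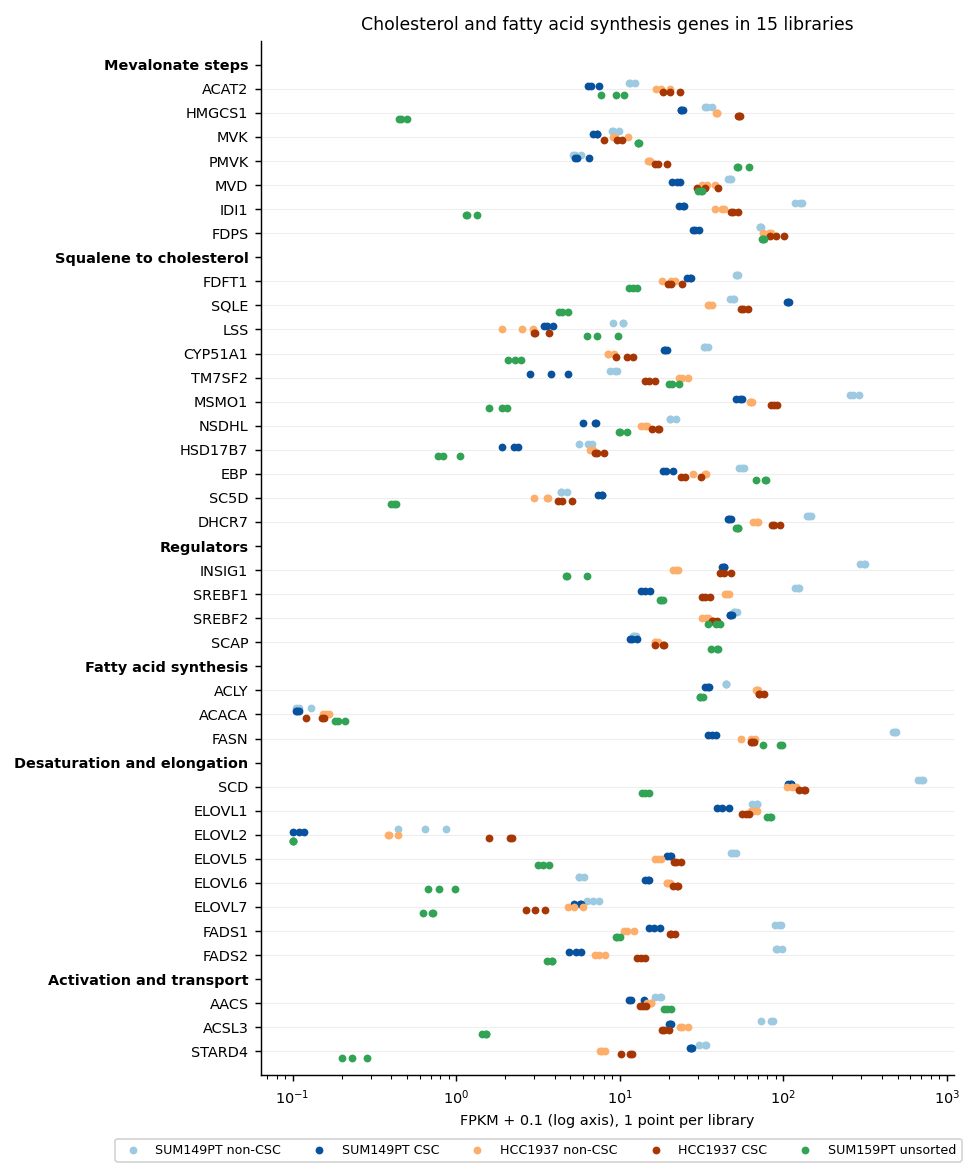
FPKM plus 0.1 of the 36 genes on a log axis, ordered by role, with 1 point for each of the 15 libraries coloured by group. SUM149PT non-CSC libraries lie far to the right for FASN (469.9 to 492 FPKM) and INSIG1 (294 to 317), while SUM159PT libraries lie far to the left for STARD4 (0.102 to 0.186).

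The summed level of the 36 genes was highest in SUM149PT non-CSCs. The libraries summed to 3171, 3138 and 3048 FPKM in that group and to 875, 877 and 877 in SUM149PT CSCs, a ratio of 3.56. In HCC1937 the order was the opposite and the distance small, with 1257, 1185 and 1174 FPKM in CSCs against 1051, 1056 and 1046 in non-CSCs, a ratio of CSC to non-CSC of 1.15. SUM159PT had the lowest sums, 706, 739 and 739.8 FPKM. As FPKM, these sums separate the 5 groups with no library out of place, while the percents that follow overlap for SUM149PT CSCs and HCC1937 non-CSCs. As a percent of all FPKM in a library, the members took 0.967% to 1.045% in SUM149PT non-CSCs, 0.277% to 0.3003% in SUM149PT CSCs, 0.288% to 0.317% in HCC1937 non-CSCs, 0.364% to 0.384% in HCC1937 CSCs and 0.108% to 0.117% in SUM159PT.

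**Figure D2:**
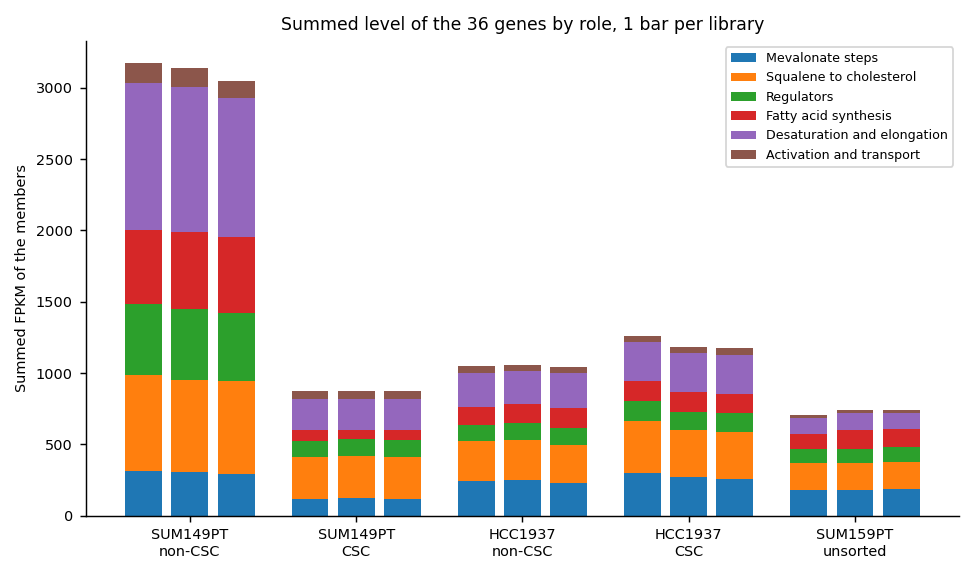
Summed FPKM of the members by role, with 1 stacked bar per library and bars grouped by line and sorted fraction. SUM149PT non-CSC bars reach 3048 to 3171 FPKM and the other bars 706 to 1257.

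CSCs and non-CSCs were compared within each sorted line by limma, on log2 of FPKM plus 0.1. Genes averaging 0.1 FPKM or more in the 6 libraries were tested, and those with a Benjamini-Hochberg adjusted p up to 0.05 count as passing, or called. With 3 libraries against 3 the smallest p an exact permutation test can give, counted on both sides, is 0.10, so no single gene could pass on permutation alone. The added 0.1 FPKM shrinks fold changes of genes near 0, so those of ELOVL2 understate the ratio of its levels. A fold change is given as CSC minus non-CSC on the log2 scale.

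In SUM149PT, lipid synthesis transcripts were lower in the CD44+CD24-/low cells almost throughout. Of the 35 members tested, 29 fell, against 41.5% of the 16037 genes tested, and 19 fell by at least 1 on the log2 scale, against 22.1% of genes. Only SQLE, SC5D and ELOVL6 rose, 3 of 35 against 33.3% of genes, and 2 of them, SQLE and ELOVL6, by at least 1, against 12.8%. PMVK, SREBF2 and SCAP did not pass the test, and passed as higher with the GC trend removed, a refit chosen after seeing the data. The median log2 fold change of the members was -1.30, against -0.11 over all genes tested. In bulk RNA, fewer cells of a type and less RNA per cell cannot be told apart, so a lower value may reflect either.

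In HCC1937 the members that passed the test mostly rose in CSCs, and how many passed depended on scaling. Of 35 members tested, 11 rose, against 10.3% of the 15582 genes tested: HMGCS1, SQLE, MSMO1, SC5D, DHCR7, INSIG1, ELOVL2, ELOVL5, FADS1, FADS2 and STARD4. INSIG1 and ELOVL2 rose by at least 1 on the log2 scale, 2 of 35 against 2.71% of genes, INSIG1 only just, at 1.004, with 0.95 to 1.13 over all refits. TM7SF2, SREBF1, ELOVL7 and ACSL3 fell, 4 of 35 against 15.3% of genes, and 20 did not pass. With replicate number as a block in limma, ELOVL7 (adjusted p = 0.0518) and ACSL3 (adjusted p = 0.0570) lost their calls. This left 2 of 35, against 12.2% of genes. With quantile normalization 17 rose and 3 fell, against 15.3% and 13.6% of genes under that setting, so all genes moved upward as well. A fall of at least 1 was called by limma in 0 of 35, against 6.0% of genes, and an unadjusted p of at most 0.05 also gave 0. The median log2 fold change was 0.19, against -0.032 over all genes tested.

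**Figure D3:**
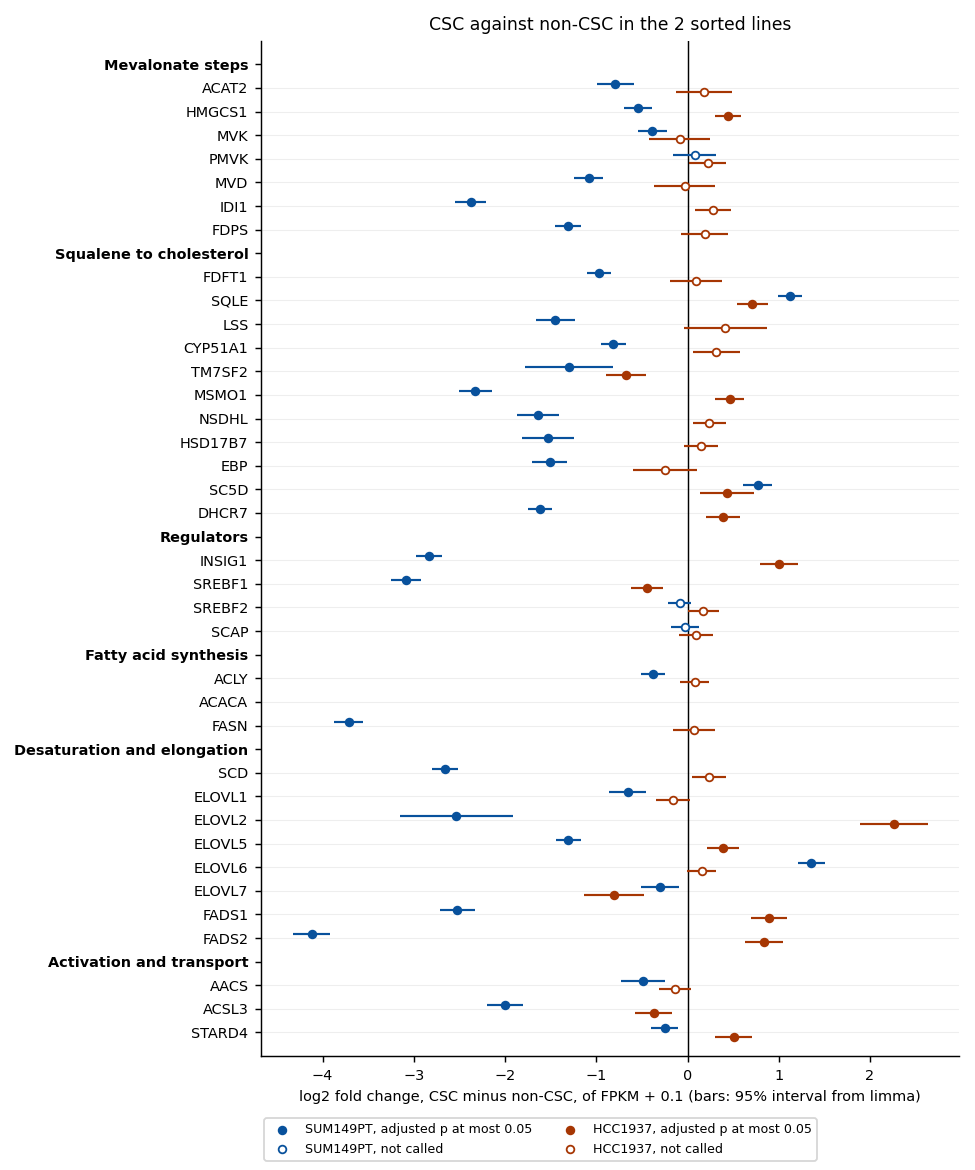
Log2 fold change of FPKM plus 0.1, CSC minus non-CSC, for each tested member in SUM149PT and HCC1937, with 95% intervals from limma, and filled points for those called. SUM149PT points reach -4.12 for FADS2, while HCC1937 points reach 2.26 for ELOVL2.

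The members called in both lines split into a shared and an opposed group. SQLE and SC5D were higher in CSCs of both lines, 2 of 35 members against 5.93% of the 14423 genes tested in both fits. The HCC1937 call of SC5D was lost without any 1 library, which leaves SQLE alone. ACSL3, ELOVL7, SREBF1 and TM7SF2 were lower in CSCs of both lines, 4 of 35 against 10.1%, and the HCC1937 call of ACSL3 was lost in 8 of 17 refits. ELOVL7 lost its SUM149PT call in 4 of 17 refits and its HCC1937 call in 1. The opposed group was larger: DHCR7, ELOVL2, ELOVL5, FADS1, FADS2, HMGCS1, INSIG1, MSMO1 and STARD4 fell in SUM149PT CSCs and rose in HCC1937 CSCs, 9 of 35 against 2.93%. Among them, DHCR7 and ELOVL5 lost the HCC1937 call in 2 and 1 of 17 refits, and STARD4 lost the SUM149PT call in 2. The reverse pattern was called by limma in 0 of 35, against 2.91% of genes, and unadjusted p-values of at most 0.05 in both lines also gave 0.

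Scaling choices moved all genes together by more than 0.1 on the log2 scale in some settings. Quantile normalization shifted the median of all genes in SUM149PT by 0.21 and took the share of calls that were higher in CSCs from 44.6% to 54.9%, and the members' median relative to all genes was -1.27, against -1.19 without it. In HCC1937, rescaling to TPM shifted the median by 0.12 and took that share from 40.3% to 54.3%, with 53.0% under quantile normalization, and the members' median relative to all genes was 0.22 under TPM and 0.20 under quantile normalization, against 0.22 without either. Quantile normalization shifted the median line difference by 0.14, and the members' median relative to all genes was then -1.17, against -1.05.

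Of the 4 regulators, SREBF1 fell in both lines, INSIG1 moved in opposite directions, and SREBF2 and SCAP passed in neither line as deposited. SREBF1, which encodes the SREBP form that mainly drives fatty acid synthesis, stood at 118, 125 and 122 FPKM in SUM149PT non-CSCs and at 15.2, 14.2 and 13.5 in CSCs. HCC1937 held it at 44.0, 46.8 and 45.4 FPKM in non-CSCs and 35.4, 33.1 and 31.8 in CSCs. CSC libraries of both lines lay below their non-CSC partners. SREBF1 thus fell in both, with log2 fold changes of -3.08, standard error 0.066, adjusted p = 1.90e-06 in SUM149PT and -0.44, standard error 0.071, adjusted p = 0.00810 in HCC1937.

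INSIG1, the sterol-dependent anchor of SCAP and itself a target of SREBP, moved in opposite directions. It stood at 317, 313 and 294 FPKM in SUM149PT non-CSCs and 43.6, 42.0 and 43.6 in CSCs (log2 fold change -2.84, standard error 0.058, adjusted p = 1.80e-06). Its HCC1937 levels were 21.9, 22.6 and 21.0 FPKM in non-CSCs and 47.6, 40.7 and 43.4 in CSCs (log2 fold change 1.004, standard error 0.083, adjusted p = 0.000849). The CSC libraries of both lines thus sat at nearly the same level, 40.7 to 47.6 FPKM, and the non-CSC libraries lay on opposite sides of them.

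SREBF2, which encodes the SREBP form that mainly drives cholesterol synthesis, varied little, at 47.4, 47.0 and 48.5 FPKM in SUM149PT CSCs, 49.6, 50.3 and 51.9 in SUM149PT non-CSCs, 36.8, 39.1 and 37.2 in HCC1937 CSCs and 31.7, 33.9 and 34.8 in HCC1937 non-CSCs. Its log2 fold change was -0.087 (adjusted p = 0.177) in SUM149PT and 0.17 (adjusted p = 0.133) in HCC1937, with 95% intervals of -0.22 to 0.042 and -0.00015 to 0.35. SCAP, the escort protein, stood at 11.7, 12.7 and 11.5 FPKM against 12.2, 12.4 and 12.01 in SUM149PT and at 18.5, 18.3 and 16.4 against 16.3, 17.1 and 16.4 in HCC1937, with log2 fold changes of -0.027 (adjusted p = 0.704) and 0.093 (adjusted p = 0.435). With each library's trend on GC content removed, an alternative chosen after seeing the data, both turned positive in SUM149PT: SREBF2 to 0.16 (adjusted p = 0.0348) and SCAP to 0.25 (adjusted p = 0.00467). Over all refits the adjusted p ran over 0.0348 to 0.923 for SREBF2 and 0.00467 to 0.995 for SCAP.

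**Figure D4:**
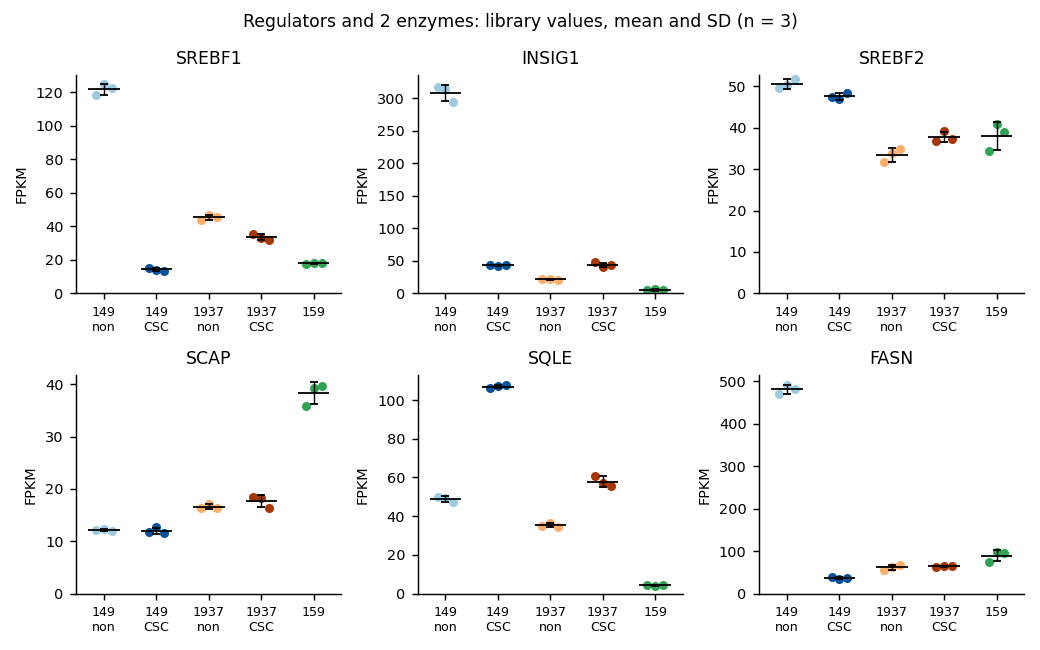
FPKM of SREBF1, INSIG1, SREBF2, SCAP, SQLE and FASN in each library (points), with the mean and SD of the 3 libraries of each group; vertical axes start at 0. SREBF2 keeps within 31.7 to 51.9 FPKM over the 15 libraries, while INSIG1 runs from 4.61 to 317.

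Since members moved together in SUM149PT, their promoters were read for the letters of motifs tied to sterol control. RefSeq promoter windows, 250 bases before to 50 after the start on GRCh38.p14, were available for 32 of the 36 members and for 15940 genes in all; those of ACAT2, FDFT1, SQLE and FASN were not in the table. The letters of 3 motifs were searched on both strands: the sterol response element TCACNCCAC, the CCAAT box CCAAT, bound by NF-Y, and the E-box CACGTG, which reads the same on either strand. CCAAT occurred in 20 of 32 members (62.5%) against 36.3% of all promoters, CACGTG in 5 of 32 (15.6%), namely ELOVL5, INSIG1, LSS, SC5D and SCAP, against 8.58%, and TCACNCCAC in 1 of 32, SREBF2, against 1.12%. A match is a description, not a site, and the absence of a match says only that these letters are not in the window. The 250 bases before the start are shown for INSIG1 (chr7:155297628-155297877, plus strand), which moved in opposite directions in the sorted lines, for SREBF2 (chr22:41832855-41833104, plus strand), which hardly moved and holds the only TCACNCCAC, and for MSMO1 (chr4:165327419-165327668, plus strand), a target enzyme with 4 CCAAT boxes. Capitals mark motif matches, with CCAAT on the minus strand read as ATTGG.
INSIG1: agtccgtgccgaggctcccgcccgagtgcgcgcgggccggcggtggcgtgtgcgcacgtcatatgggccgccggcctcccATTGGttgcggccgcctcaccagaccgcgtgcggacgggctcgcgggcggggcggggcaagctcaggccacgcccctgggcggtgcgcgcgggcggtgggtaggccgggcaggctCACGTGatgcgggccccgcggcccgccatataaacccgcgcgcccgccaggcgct
SREBF2: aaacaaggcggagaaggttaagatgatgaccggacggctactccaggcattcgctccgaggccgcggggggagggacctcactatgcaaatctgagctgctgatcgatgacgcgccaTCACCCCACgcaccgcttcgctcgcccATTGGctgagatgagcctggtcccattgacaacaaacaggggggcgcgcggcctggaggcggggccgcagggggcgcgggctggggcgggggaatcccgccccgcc
MSMO1: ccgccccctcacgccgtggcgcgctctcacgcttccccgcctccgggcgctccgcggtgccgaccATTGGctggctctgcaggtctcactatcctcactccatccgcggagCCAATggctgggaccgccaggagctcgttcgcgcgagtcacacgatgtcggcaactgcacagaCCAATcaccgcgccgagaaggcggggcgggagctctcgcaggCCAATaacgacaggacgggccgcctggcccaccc
The INSIG1 window holds 1 CCAAT box at -170 from the start and 1 E-box at -55. The SREBF2 window holds TCACCCCAC at -133 and a CCAAT box at -106. The MSMO1 boxes lie at -185, -139, -76 and -34. MVK and NSDHL, not shown, hold 5 CCAAT boxes each, and their log2 fold changes in SUM149PT were -0.39 and -1.64. The windows of FADS2 (-4.12), SREBF1 (-3.08), FADS1 (-2.52) and IDI1 (-2.38) hold no CCAAT. Whether the number of motifs goes with the fold change was not tested.

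The 7 members of the mevalonate steps carry acetyl-CoA to farnesyl diphosphate. In SUM149PT, 6 of 7 fell in CSCs, with a median of -0.79 over the 7, and PMVK, phosphomevalonate kinase, did not pass (0.079, adjusted p = 0.479), except with the GC trend removed at 0.36 (adjusted p = 0.00903). In HCC1937, HMGCS1 alone was called. The summed level of these genes was 313, 308 and 295 FPKM in SUM149PT non-CSCs and 114, 122 and 119 in CSCs, a ratio of 2.58.

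HMGCS1, the HMG-CoA synthase that commits acetyl-CoA to the pathway, stood at 23.6, 23.5 and 24.2 FPKM in SUM149PT CSCs and 36.7, 34.2 and 33.0 in non-CSCs, and at 52.7, 53.3 and 54.2 in HCC1937 CSCs and 38.8, 39.5 and 39.5 in non-CSCs. The groups of each line did not overlap and lay in opposite order, with log2 fold changes of -0.54, standard error 0.062, adjusted p = 0.000475 in SUM149PT and 0.44, standard error 0.058, adjusted p = 0.00393 in HCC1937. IDI1, the isopentenyl diphosphate isomerase, fell furthest of the 7 in SUM149PT, from 131, 127 and 117 FPKM in non-CSCs to 22.9, 24.8 and 24.2 in CSCs (log2 fold change -2.38, standard error 0.068, adjusted p = 3.42e-06). In HCC1937 the values were 52.8, 47.9 and 49.2 FPKM in CSCs and 42.3, 43.1 and 38.4 in non-CSCs, and the difference missed the threshold (log2 fold change 0.28, adjusted p = 0.0560). FDPS, which makes farnesyl diphosphate, stood at 28.1, 30.5 and 28.6 FPKM against 72.3, 73.0 and 71.6 in SUM149PT (log2 fold change -1.31, standard error 0.057, adjusted p = 1.13e-05). In HCC1937 its CSC values, 102, 90.3 and 82.5, overlapped its non-CSC values, 82.3, 83.7 and 74.7 (log2 fold change 0.19, adjusted p = 0.249).

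The remaining early enzymes changed less than IDI1 and FDPS in SUM149PT. ACAT2, the cytosolic acetoacetyl-CoA thiolase, and MVD, mevalonate diphosphate decarboxylase, had log2 fold changes of -0.79 (adjusted p = 0.000308) and -1.08 (adjusted p = 3.27e-05) in SUM149PT, and 0.18 (adjusted p = 0.360) and -0.032 (adjusted p = 0.887) in HCC1937. MVK, mevalonate kinase, fell to 6.79, 7.12 and 7.20 FPKM in SUM149PT CSCs from 8.81, 9.06 and 9.82 (log2 fold change -0.39, adjusted p = 0.00253). Its call was lost with the GC trend removed, at -0.095 (adjusted p = 0.193), and its adjusted p over all refits ran over 0.000561 to 0.193. PMVK and IDI1 passed the test in HCC1937 after rescaling to TPM, at 0.35 (adjusted p = 0.0299) and 0.40 (adjusted p = 0.0117), and FDPS at 0.31 (adjusted p = 0.0323). IDI1 also passed in the fit over 15 libraries, at 0.28 (adjusted p = 0.0168). Of 17 refits PMVK passed in 4, IDI1 in 7 and FDPS in 2. Over all refits their adjusted p ran over 0.00981 to 0.244, 0.0113 to 0.134 and 0.0279 to 0.462.

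The 11 members from squalene to cholesterol close the sterol rings and trim them. In SUM149PT 9 of 11 fell and SQLE and SC5D rose, with a median of -1.45. In HCC1937, SQLE, MSMO1, SC5D and DHCR7 rose, TM7SF2 fell and 6 did not pass, with a median of 0.32. Their summed level was 677, 641 and 648 FPKM in SUM149PT non-CSCs against 295, 298 and 295 in CSCs, a ratio of 2.21.

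SQLE, squalene epoxidase, the first oxygen-requiring step, ran against its neighbours in SUM149PT. It stood at 106, 107 and 108 FPKM in SUM149PT CSCs and 50.1, 49.4 and 47.2 in non-CSCs (log2 fold change 1.13, standard error 0.053, adjusted p = 1.45e-05). In HCC1937 it stood at 60.9, 56.9 and 55.4 FPKM in CSCs and 35.0, 36.4 and 34.6 in non-CSCs (log2 fold change 0.71, standard error 0.069, adjusted p = 0.00140). All CSC libraries of both lines lay above all non-CSC libraries of both. FDFT1, squalene synthase, the step just before, stood at 25.6, 27.0 and 26.7 FPKM in SUM149PT CSCs and 51.8, 51.4 and 52.6 in non-CSCs (log2 fold change -0.97, adjusted p = 2.27e-05), and its HCC1937 groups overlapped (0.092, adjusted p = 0.598). LSS, which closes the rings to lanosterol, stood at 3.51, 3.37 and 3.81 FPKM against 10.4, 10.3 and 8.97 in SUM149PT (-1.45, adjusted p = 3.44e-05) and had a log2 fold change of 0.42 (adjusted p = 0.164) in HCC1937.

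MSMO1, the C4 methyl oxidase, fell furthest of these 11 in SUM149PT, at 291, 255 and 269 FPKM in non-CSCs and 54.5, 55.9 and 51.6 in CSCs (log2 fold change -2.33, standard error 0.073, adjusted p = 4.13e-06). HCC1937 held it at 91.4, 83.7 and 87.2 FPKM in CSCs and 64.0, 63.6 and 62.6 in non-CSCs (log2 fold change 0.46, standard error 0.065, adjusted p = 0.00509). The CSC libraries lay below their partners in SUM149PT and above them in HCC1937. DHCR7, which catalyses a final step from dehydrocholesterol to cholesterol, followed the same order: 143, 147 and 140.5 FPKM in SUM149PT non-CSCs, 45.6, 47.9 and 46.5 in CSCs, and 95.9, 87.3 and 85.4 in HCC1937 CSCs against 69.3, 65.6 and 69.7 in non-CSCs. Its log2 fold changes were -1.62, standard error 0.053, adjusted p = 4.75e-06 in SUM149PT and 0.39, standard error 0.075, adjusted p = 0.0146 in HCC1937. The HCC1937 call was lost without non-CSC replicate 1, at 0.40 (adjusted p = 0.0501), and without non-CSC replicate 2, at 0.36 (adjusted p = 0.0607), and its adjusted p over all refits ran over 0.000205 to 0.0607.

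NSDHL, HSD17B7 and EBP act between lanosterol and the last steps, as a sterol dehydrogenase, a keto reductase and an isomerase. They fell in SUM149PT with log2 fold changes of -1.64 (adjusted p = 2.85e-05), -1.53 (adjusted p = 8.03e-05) and -1.51 (adjusted p = 1.83e-05). NSDHL stood at 5.83, 7.02 and 6.97 FPKM in SUM149PT CSCs against 20.1, 21.9 and 20.1 in non-CSCs, with no overlap, and at 17.1, 15.8 and 17.2 against 14.7, 14.3 and 13.5 in HCC1937. CYP51A1, lanosterol demethylase, fell by less (-0.82, adjusted p = 5.41e-05). None of these 4 passed in HCC1937 as deposited, with log2 fold changes of 0.24 (adjusted p = 0.0653) for NSDHL, 0.15 (adjusted p = 0.210) for HSD17B7, -0.25 (adjusted p = 0.265) for EBP and 0.32 (adjusted p = 0.0810) for CYP51A1. After rescaling to TPM, NSDHL at 0.36 (adjusted p = 0.0310), HSD17B7 at 0.28 (adjusted p = 0.0348) and CYP51A1 at 0.44 (adjusted p = 0.0190) passed, and CYP51A1 also passed without CSC replicate 3, at 0.41 (adjusted p = 0.0372). In the fit over 15 libraries NSDHL, at 0.24 (adjusted p = 0.0416), and CYP51A1, at 0.32 (adjusted p = 0.0159), passed too. Of 17 refits NSDHL passed in 8, HSD17B7 in 3 and CYP51A1 in 6. Their adjusted p over all refits ran over 0.0261 to 0.164, 0.0348 to 0.384 and 0.0159 to 0.203.

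SC5D and TM7SF2 were called in both lines. SC5D, the C5 desaturase, stood at 7.75, 7.26 and 7.68 FPKM in SUM149PT CSCs and 4.66, 4.25 and 4.28 in non-CSCs (log2 fold change 0.77, standard error 0.064, adjusted p = 0.000124), and at 4.08, 4.33 and 4.99 against 2.88, 3.53 and 3.49 in HCC1937 (log2 fold change 0.43, standard error 0.12, adjusted p = 0.04998). The HCC1937 call sat at the threshold and was lost on leaving out any library: without CSC replicate 1 the value was 0.49 (adjusted p = 0.0597), without CSC replicate 2 0.45 (adjusted p = 0.110) and without CSC replicate 3 0.35 (adjusted p = 0.122). Without non-CSC replicates 1, 2 and 3 it was 0.34 (adjusted p = 0.124), 0.48 (adjusted p = 0.0891) and 0.47 (adjusted p = 0.0859). It was also lost with no minimum, at 0.43 (adjusted p = 0.0671), with a pseudocount of 0.01, at 0.44 (adjusted p = 0.0563), after rescaling to TPM, at 0.56 (adjusted p = 0.0640), and with the GC trend removed, at 0.39 (adjusted p = 0.0515), and over all refits the adjusted p ran over 0.00306 to 0.124. TM7SF2, a sterol reductase, stood at 3.72, 2.74 and 4.72 FPKM in SUM149PT CSCs and 8.59, 9.24 and 9.51 in non-CSCs (log2 fold change -1.30, standard error 0.19, adjusted p = 0.00149), and at 16.4, 15.1 and 14.2 against 23.9, 26.1 and 22.9 in HCC1937 (log2 fold change -0.67, standard error 0.088, adjusted p = 0.00393). It was lower in every CSC library than in every non-CSC library of its line.

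Fatty acid synthesis proper had the largest ratio of summed levels between the SUM149PT fractions of the 6 roles. FASN, which assembles palmitate, stood at 469.9, 492 and 483 FPKM in SUM149PT non-CSCs and at 38.8, 34.5 and 36.5 in CSCs, 13.2 times lower by group means (log2 fold change -3.71, standard error 0.065, adjusted p = 1.51e-06). Its HCC1937 levels were 63.3, 66.2 and 64.4 FPKM in CSCs and 55.0, 63.0 and 67.5 in non-CSCs, which overlapped (log2 fold change 0.068, adjusted p = 0.642, 95% interval -0.16 to 0.30). SUM149PT CSCs therefore held less FASN than either HCC1937 group, and SUM149PT non-CSCs far more. ACLY, ATP citrate lyase, which supplies cytosolic acetyl-CoA, changed far less, from 44.8, 44.6 and 44.5 FPKM in SUM149PT non-CSCs to 35.2, 33.1 and 34.7 in CSCs (log2 fold change -0.38, standard error 0.053, adjusted p = 0.00113), and had a log2 fold change of 0.078 (adjusted p = 0.422) in HCC1937. Across ACLY, ACACA and FASN the summed level was 7.42 times higher in SUM149PT non-CSCs than in CSCs, nearly all of it FASN, and 1.05 times higher in HCC1937 CSCs than in non-CSCs.

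The 8 members of desaturation and elongation shape the fatty acids that FASN makes or that come from the diet. In SUM149PT 7 of 8 fell and ELOVL6 rose, with a median of -1.91. In HCC1937, ELOVL2, ELOVL5, FADS1 and FADS2 rose, ELOVL7 fell and 3 did not pass, with a median of 0.31. Their summed level was 1032, 1018 and 977 FPKM in SUM149PT non-CSCs and 215, 212 and 216 in CSCs, a ratio of 4.71.

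FADS2 and FADS1, the delta-6 and delta-5 desaturases that make polyunsaturated fatty acids, overlap on chromosome 11. FADS2 stood at 91.7, 98.0 and 90.2 FPKM in SUM149PT non-CSCs and 4.82, 5.30 and 5.74 in CSCs (log2 fold change -4.12, standard error 0.083, adjusted p = 1.78e-06), the largest log2 fold change of any member in that line with 0.1 FPKM added. ELOVL2, near 0 in the CSCs, cannot be ranked against it. In HCC1937 the values were 12.7, 14.1 and 13.4 FPKM in CSCs and 7.42, 6.97 and 7.997 in non-CSCs (log2 fold change 0.84, standard error 0.083, adjusted p = 0.00152). FADS1 had the same order in both lines. It stood at 94.8, 97.3 and 88.7 FPKM in SUM149PT non-CSCs and 17.5, 15.1 and 16.2 in CSCs (log2 fold change -2.52, standard error 0.078, adjusted p = 3.97e-06), and at 21.7, 20.2 and 20.5 in HCC1937 CSCs and 10.5, 10.9 and 12.1 in non-CSCs (log2 fold change 0.89, standard error 0.078, adjusted p = 0.00103). FADS1 and FADS2 share 490 exon bases on opposite strands, and whether the libraries kept strand is not stated, so reads there may count for either gene.

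SCD, the delta-9 desaturase that makes monounsaturated fatty acids, stood at 712, 697 and 669 FPKM in SUM149PT non-CSCs and 112, 106 and 111 in CSCs (log2 fold change -2.66, standard error 0.056, adjusted p = 1.82e-06). In HCC1937 it stood at 126, 134 and 137 FPKM in CSCs and 113, 106 and 119 in non-CSCs, and the difference missed the threshold (log2 fold change 0.23, adjusted p = 0.0790). It passed with a pseudocount of 1, at 0.23 (adjusted p = 0.0486), and in the fit over 15 libraries, at 0.23 (adjusted p = 0.0139), with adjusted p over all refits of 0.0139 to 0.222. The SCD levels of SUM149PT CSCs and of HCC1937 non-CSCs overlapped, the SUM149PT non-CSCs lay above all other libraries and SUM159PT, at 13.6, 14.97 and 14.2 FPKM, below them.

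The elongases did not move as 1 block. ELOVL6, which extends palmitate to stearate, rose in SUM149PT CSCs to 15.1, 14.2 and 14.8 FPKM from 5.98, 5.56 and 5.51 (log2 fold change 1.36, standard error 0.061, adjusted p = 1.23e-05), and had a log2 fold change of 0.15 (adjusted p = 0.147) in HCC1937. ELOVL5, which extends polyunsaturated chains, fell in SUM149PT to 20.4, 19.5 and 20.1 FPKM from 51.3, 49.5 and 48.1 (log2 fold change -1.31, standard error 0.055, adjusted p = 1.04e-05) and rose in HCC1937 to 23.7, 21.5 and 22.0 from 17.7, 17.1 and 16.4 (log2 fold change 0.39, standard error 0.072, adjusted p = 0.0126). The HCC1937 call of ELOVL5 was lost without non-CSC replicate 2, at 0.39 (adjusted p = 0.0502), with adjusted p over all refits of 0.000631 to 0.0502. These elongases thus ran in different directions within SUM149PT.

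ELOVL2, which makes very long polyunsaturated chains, was scarce in all groups. It stood at 0.00888, 0 and 0.0166 FPKM in SUM149PT CSCs and 0.550, 0.765 and 0.339 in non-CSCs (log2 fold change -2.53, standard error 0.25, adjusted p = 0.000247), and at 2.02, 2.08 and 1.48 in HCC1937 CSCs and 0.290, 0.284 and 0.344 in non-CSCs (log2 fold change 2.26, standard error 0.15, adjusted p = 0.000461). Its HCC1937 CSC libraries lay above all others. Over all refits the fold change ran over -4.96 to -0.61 in SUM149PT and 1.13 to 2.59 in HCC1937, with the added value moving it most. ELOVL1, an elongase of saturated chains, stood at 39.3, 46.7 and 41.9 FPKM in SUM149PT CSCs and 68.6, 64.1 and 68.6 in non-CSCs (log2 fold change -0.66, standard error 0.082, adjusted p = 0.000692), and at 62.0, 58.7 and 56.1 against 69.5, 63.5 and 65.0 in HCC1937 (log2 fold change -0.16, adjusted p = 0.175). ELOVL7 stood at 5.68, 5.13 and 5.61 FPKM in SUM149PT CSCs and 7.38, 6.21 and 6.76 in non-CSCs (log2 fold change -0.30, standard error 0.085, adjusted p = 0.0196), and at 2.58, 3.42 and 2.92 in HCC1937 CSCs and 5.86, 4.75 and 5.17 in non-CSCs (log2 fold change -0.81, standard error 0.13, adjusted p = 0.00863). Its SUM149PT call was lost without CSC replicate 2, at -0.26 (adjusted p = 0.0602), without non-CSC replicate 3, at -0.30 (adjusted p = 0.0509), and with TPM and quantile scaling, at -0.26 (adjusted p = 0.0571) and -0.17 (adjusted p = 0.122). With replicate number as a block its HCC1937 value was -0.81 (adjusted p = 0.0518). Over all refits the adjusted p ran over 0.00556 to 0.122 in SUM149PT and 0.000121 to 0.0518 in HCC1937.

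The 3 members of activation and transport prepare substrates and move cholesterol, and all 3 fell in SUM149PT. ACSL3, a long-chain acyl-CoA synthetase of lipid droplets, stood at 20.4, 20.2 and 20.0 FPKM in SUM149PT CSCs and 87.0, 83.8 and 73.0 in non-CSCs (log2 fold change -2.0, standard error 0.080, adjusted p = 8.73e-06). HCC1937 held it at 18.6, 17.9 and 20.0 in CSCs and 26.0, 23.2 and 24.1 in non-CSCs (log2 fold change -0.37, standard error 0.080, adjusted p = 0.0210). CSC libraries lay below non-CSC libraries in both lines. The HCC1937 call was lost without CSC replicate 1, at -0.36 (adjusted p = 0.0544), CSC replicate 2, at -0.34 (adjusted p = 0.0743), non-CSC replicate 1, at -0.33 (adjusted p = 0.0720), and non-CSC replicate 3, at -0.38 (adjusted p = 0.0580). It was also lost after rescaling to TPM, at -0.25 (adjusted p = 0.174), with upper quartile scaling, at -0.31 (adjusted p = 0.0563), with quantile normalization, at -0.30 (adjusted p = 0.0705), and with replicate number as a block, at -0.37 (adjusted p = 0.0570), and its adjusted p over all refits ran over 0.00198 to 0.174.

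STARD4, a carrier that moves cholesterol between membranes, stood at 27.6, 26.7 and 27.1 FPKM in SUM149PT CSCs and 33.4, 32.9 and 30.5 in non-CSCs (log2 fold change -0.25, standard error 0.060, adjusted p = 0.0103), and at 10.2, 11.4 and 11.7 in HCC1937 CSCs and 8.09, 7.72 and 7.52 in non-CSCs (log2 fold change 0.51, standard error 0.082, adjusted p = 0.00803). The order of its groups was thus opposite in the lines. After rescaling to TPM the SUM149PT value was -0.21 (adjusted p = 0.0722) and in the fit over 15 libraries -0.25 (adjusted p = 0.0502), with adjusted p over all refits of 0.00202 to 0.0722. AACS, which activates acetoacetate for lipid synthesis, fell in SUM149PT with a log2 fold change of -0.49 (adjusted p = 0.00521) and stood at -0.14 (adjusted p = 0.215) in HCC1937.

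The difference between the lines was tested as an interaction term over the 12 sorted libraries, SUM149PT fold change minus HCC1937 fold change. This test pools the spread of both lines, and on simulated data whose spread differed between lines it made more false calls than it should, so differences near the threshold are less certain than their adjusted p. Of 35 members, 28 had a negative difference that passed, against 33.0% of the 16451 genes tested, and 3 a positive one, SQLE, ELOVL6 and ELOVL7, against 28.1%. The median difference of the members was -1.13, against -0.079 over all genes tested. With 0.1 FPKM added FADS2 differed most, by -4.96 (standard error 0.11, adjusted p = 4.87e-09), followed by ELOVL2 at -4.80, INSIG1 at -3.84, FASN at -3.78 and FADS1 at -3.41. The place of ELOVL2 in this order depends on the added value, since its difference ran over -7.52 to -1.74 over all refits. MVK, PMVK, SC5D and SCAP did not pass, with differences of -0.30 (adjusted p = 0.112), -0.14 (adjusted p = 0.349), 0.34 (adjusted p = 0.0516) and -0.12 (adjusted p = 0.280).

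A few line differences turned on single libraries or on a setting. The negative difference of TM7SF2, -0.63 (adjusted p = 0.0334), was lost without HCC1937 CSC replicate 1 at -0.58 (adjusted p = 0.0700), HCC1937 CSC replicate 2 at -0.63 (adjusted p = 0.0557), HCC1937 non-CSC replicate 1 at -0.62 (adjusted p = 0.0610) and HCC1937 non-CSC replicate 3 at -0.59 (adjusted p = 0.0689). It was also lost without SUM149PT CSC replicate 1 at -0.64 (adjusted p = 0.0532), non-CSC replicate 2 at -0.62 (adjusted p = 0.0612) and non-CSC replicate 3 at -0.60 (adjusted p = 0.0672). With the GC trend removed it was -0.46 (adjusted p = 0.111). TM7SF2 therefore kept its direction but not its call. That of AACS, -0.35 (adjusted p = 0.0260), was lost without HCC1937 CSC replicate 3 at -0.32 (adjusted p = 0.0573), HCC1937 non-CSC replicate 2 at -0.32 (adjusted p = 0.0599), SUM149PT CSC replicate 1 at -0.29 (adjusted p = 0.0619) and SUM149PT CSC replicate 3 at -0.31 (adjusted p = 0.0631). It was lost too without SUM149PT non-CSC replicate 1 at -0.34 (adjusted p = 0.0531) and non-CSC replicate 2 at -0.33 (adjusted p = 0.0568), and with the GC trend removed at -0.23 (adjusted p = 0.108). ELOVL7, at 0.50 (adjusted p = 0.0212), was lost without SUM149PT non-CSC replicate 2 at 0.44 (adjusted p = 0.0505), with replicate number as a block at 0.50 (adjusted p = 0.0615) and after rescaling to TPM at 0.43 (adjusted p = 0.105). In the other direction, MVK passed without HCC1937 CSC replicate 3 at -0.41 (adjusted p = 0.0221), HCC1937 non-CSC replicate 2 at -0.39 (adjusted p = 0.0433), and after rescaling to TPM at -0.39 (adjusted p = 0.0287). SC5D passed without HCC1937 CSC replicate 3 at 0.42 (adjusted p = 0.0187), HCC1937 non-CSC replicate 1 at 0.43 (adjusted p = 0.0128) and SUM149PT non-CSC replicate 1 at 0.38 (adjusted p = 0.0499). It also passed with replicate number as a block at 0.34 (adjusted p = 0.0275), a pseudocount of 1 at 0.32 (adjusted p = 0.0233), quantile normalization at 0.41 (adjusted p = 0.0299), a minimum of 1 FPKM at 0.34 (adjusted p = 0.0400), trend and robust settings at 0.34 (adjusted p = 0.0421), the fit over 15 libraries at 0.34 (adjusted p = 0.0377) and the GC trend removed at 0.34 (adjusted p = 0.0347). Over all refits the adjusted p ran over 0.00316 to 0.111 for TM7SF2, 0.00289 to 0.108 for AACS, 0.00698 to 0.105 for ELOVL7, 0.0221 to 0.307 for MVK and 0.0128 to 0.260 for SC5D. SREBF2, at -0.26 (adjusted p = 0.0143), was lost with the GC trend removed at -0.10 (adjusted p = 0.390) and with quantile normalization at -0.24 (adjusted p = 0.0814), with a range of 0.00650 to 0.390.

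Levels were compared across the groups, without a test. In 18 of 35 members tested every SUM149PT non-CSC library lay above all other libraries, against 16.9% of 16373 genes averaging 0.1 FPKM or more across the 15 libraries. SUM149PT CSC libraries lay below all others for 11 of 35, among them FASN, SREBF1, DHCR7, FDPS, MVD and NSDHL, against 9.01% of genes, and above all others for SC5D and SQLE, 2 of 35 against 13.6%. HCC1937 CSC libraries lay above all others for 5 of 35 members, ACLY, ELOVL2, ELOVL6, HMGCS1 and HSD17B7, against 6.27% of genes. INSIG1, FADS1, FADS2 and MSMO1, which moved in opposite directions, were among the 18 with SUM149PT non-CSCs highest, and HCC1937 CSCs held 20.3 to 21.7 FPKM of FADS1, under the 88.7 to 97.3 of SUM149PT non-CSCs.

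SUM159PT was compared by level only, since it has 1 unsorted group and no partner. In 18 of 35 members tested all 3 SUM159PT libraries lay below all 12 sorted libraries, against 39.8% of 16373 genes, and in 6 of 35 they lay above, against 16.4%: AACS, EBP, ELOVL1, MVK, PMVK and SCAP. With ACACA, which was not tested, 7 of the 36 lay above and 11 within the sorted range. The share above is near that of all genes.

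Some of the low members in SUM159PT were low by wide margins. STARD4 stood at 0.131, 0.186 and 0.102 FPKM, HMGCS1 at 0.403, 0.362 and 0.348, SC5D at 0.297, 0.328 and 0.318 and ELOVL7 at 0.613, 0.528 and 0.623. IDI1 stood at 1.07, 1.24 and 1.05 FPKM and MSMO1 at 1.497, 1.95 and 1.80, INSIG1 at 4.67, 6.19 and 4.61 and SQLE at 4.32, 4.15 and 4.72. ELOVL2 was listed at 0 in the 3 libraries but lay within the sorted range, since SUM149PT CSC libraries were also at or near 0. Other margins were narrow: ACLY stood at 30.8, 31.1 and 32.0 FPKM, just under its SUM149PT CSCs, FADS1 at 9.55, 9.95 and 9.41 and FADS2 at 3.76, 3.49 and 3.74. Enzymes on either side of these steps were not low in FPKM as deposited: PMVK stood at 52.8, 51.8 and 61.6 FPKM, EBP at 77.5, 68.0 and 78.1, FDPS at 76.0, 74.7 and 74.5 and FASN at 75.4, 97.8 and 96.0. SCAP, at 35.8, 39.3 and 39.6 FPKM, was above its level in every sorted library, and SREBF1, at 17.5, 18.3 and 17.9, lay between SUM149PT CSCs and HCC1937 CSCs. In FPKM as deposited, levels in SUM159PT were thus uneven from step to step, with HMGCS1 near 0 and FDPS, further along the same route, near its level in HCC1937. SUM159PT libraries summed to more FPKM than the sorted ones. As a share of FPKM, each of these levels therefore stands lower against the sorted lines.

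Across the 36 members, the difference of mean log2 level between SUM159PT and SUM149PT CSCs had a Spearman correlation with the GC content of the transcripts of 0.785, and that between SUM159PT and HCC1937 CSCs of 0.803. Over the 14188 expressed genes with a GC value the same correlations were 0.586 and 0.508. Genes are not independent replicates, and those values share the same libraries, so no p is given. Within lines the correlation with GC of CSC minus non-CSC was weaker, -0.123 over members and -0.132 over all genes in SUM149PT, and -0.39 and -0.176 in HCC1937. STARD4, with 40.6% GC, and HMGCS1, with 41.8%, were low in SUM159PT, and PMVK, with 59.5%, was high. With the GC trend of each library removed, 4 of 35 members tested lay above all sorted libraries and 14 below, against 24.0% and 23.8% of genes. After rescaling to TPM 1 lay above and 27 below, against 6.28% and 53.5%. The number that stand apart in SUM159PT thus depends on scaling, for all genes as for the members. Whether preparation, sequencing or the cells gave the GC trend was not tested.

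**Figure D5:**
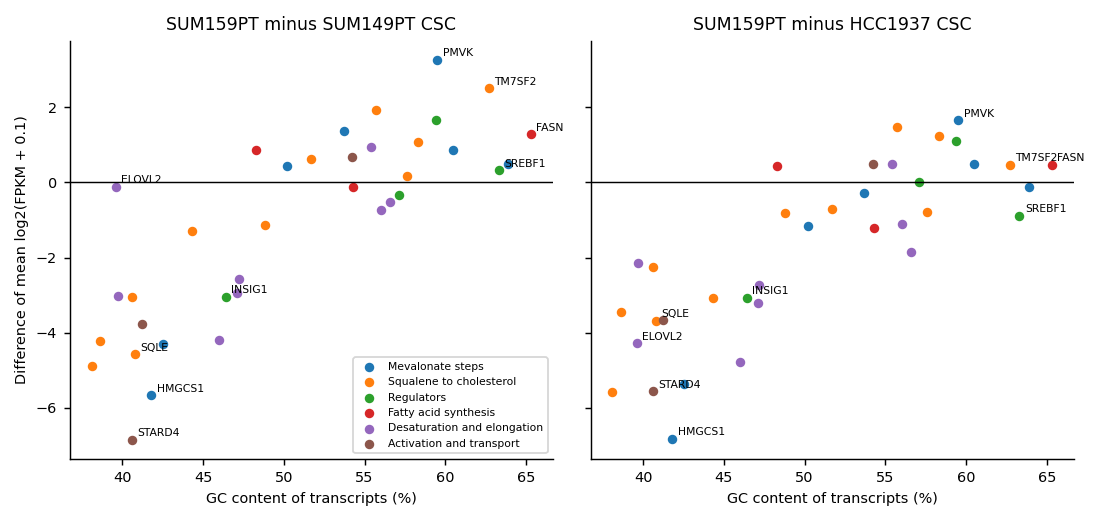
Difference of mean log2(FPKM + 0.1) between SUM159PT and CSCs of SUM149PT (left) or HCC1937 (right), against GC content of the transcripts in percent, with 1 point per member coloured by role. HMGCS1, with low GC, lies far below 0 in both panels, while ELOVL2, near 0 in both SUM159PT and SUM149PT CSCs, lies near 0 on the left, and the Spearman correlations are 0.785 and 0.803.

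Genes around the synthesis pathways were read from lists by function. Of all genes tested 33.3% rose and 41.5% fell in SUM149PT CSCs, with a median of -0.11, and 10.3% rose and 15.3% fell in HCC1937 CSCs, with a median of -0.032, and the counts of each list stand beside these shares. Of the 3 SREBP processing genes, MBTPS2, the protease that makes the second cleavage, rose in CSCs of both lines (0.32, adjusted p = 0.00228 in SUM149PT, and 0.46, adjusted p = 0.00573 in HCC1937). MBTPS1, the protease of the first cleavage, fell in SUM149PT (-0.43, adjusted p = 0.000750), and INSIG2, the second SCAP anchor, fell in HCC1937 (-0.40, adjusted p = 0.00848) and stood at 0.0033 (adjusted p = 0.968) in SUM149PT. The list's median was 0.0033 in SUM149PT and 0.13 in HCC1937.

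Isoprenoid branches, which draw on mevalonate for protein prenylation, dolichol and ubiquinone, were mixed: 3 of 9 rose and 4 fell in SUM149PT, and 1 of 9 fell in HCC1937, with medians of 0.20 and -0.019. GGPS1, the geranylgeranyl diphosphate synthase, stood at 6.57, 6.92 and 7.40 FPKM in SUM149PT CSCs and 26.2, 25.6 and 25.5 in non-CSCs (log2 fold change -1.88, adjusted p = 5.42e-06), while its HCC1937 value was -0.089 (adjusted p = 0.442). FNTA and FNTB are the subunits of protein farnesyltransferase. FNTA fell in both lines (-0.36, adjusted p = 0.00479, and -0.27, adjusted p = 0.0320) and FNTB rose in SUM149PT (1.11, adjusted p = 0.0124), and DHDDS, which starts dolichol, fell there (-1.04, adjusted p = 3.07e-05).

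Of 6 genes of sterol sensing and efflux, 2 rose and 3 fell in SUM149PT and 1 rose and 1 fell in HCC1937, with medians of -0.67 and 0.0057. The 6 log2 fold changes spanned -2.13 to 0.983 (SUM149PT) and -0.655 to 1.31 (HCC1937). Both upper ends belong to the same gene, which rose in CSCs of both lines. NR1H3, the nuclear receptor LXR alpha, and LPCAT3, a lysophospholipid acyltransferase, fell in SUM149PT (-2.08, adjusted p = 1.59e-05, and -2.13, adjusted p = 3.87e-06), while ABCG1, a sterol exporter named after its value was seen, rose (0.66, adjusted p = 0.000180). MYLIP, a ligase that marks lipoprotein receptors for degradation, fell in both lines (-1.16, adjusted p = 2.83e-05, and -0.65, adjusted p = 0.00379).

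Of 9 genes of sterol uptake and traffic, 3 rose and 3 fell in SUM149PT, and 4 rose in HCC1937, with medians of 0.16 and 0.10. SCARB1, a receptor that takes up cholesterol esters, rose in both lines, at 47.2, 51.2 and 49.6 FPKM against 26.6, 29.6 and 29.1 in SUM149PT and 60.3, 53.0 and 52.2 against 36.1, 38.1 and 38.7 in HCC1937 (log2 fold changes 0.79, adjusted p = 0.000138, and 0.55, adjusted p = 0.00656). VLDLR, a lipoprotein receptor, rose in SUM149PT from 0.394, 0.624 and 0.594 FPKM in non-CSCs to 3.84, 3.48 and 3.23 in CSCs (2.52, adjusted p = 4.81e-05). LIPA, the lysosomal lipase that frees cholesterol from its esters, fell in SUM149PT (-1.76, adjusted p = 1.16e-05) and NPC2, a lysosomal sterol carrier, rose (0.98, adjusted p = 0.000299). LRP8, another lipoprotein receptor, rose in HCC1937 (0.36, adjusted p = 0.0163) and fell in SUM149PT (-0.47, adjusted p = 0.00134). Genes of uptake and traffic thus went both ways in SUM149PT.

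Of the genes of lipid storage and fatty acid handling 7 of 12 fell and 3 rose in SUM149PT, where 41.5% of all genes fell and 33.3% rose, and in HCC1937 5 of 13 rose and 4 fell, with medians of -0.24 and 0.37. PLIN2, the coat protein of lipid droplets, stood at 0.855, 0.582 and 0.700 FPKM in SUM149PT CSCs and 13.9, 14.2 and 13.5 in non-CSCs (log2 fold change -4.12, standard error 0.13, adjusted p = 4.08e-06), and at 34.5, 29.6 and 30.8 in HCC1937 CSCs and 14.8, 15.9 and 16.4 in non-CSCs (log2 fold change 1.004, standard error 0.088, adjusted p = 0.00103). MID1IP1, an activator of acetyl-CoA carboxylase, had values of 1.55, 1.996 and 1.88 against 27.2, 26.1 and 25.3 FPKM in SUM149PT (log2 fold change -3.79, adjusted p = 3.07e-06) and a log2 fold change of 0.37 (adjusted p = 0.0229) in HCC1937. Both had the opposed order seen for INSIG1 and FADS2. ACSS2, which makes acetyl-CoA from acetate, fell in both lines (-3.42, adjusted p = 1.49e-06, and -0.40, adjusted p = 0.0169). DGAT1, which makes triglyceride, also fell in both (-0.23, adjusted p = 0.0162, and -0.98, adjusted p = 0.00395). ACSL4, an acyl-CoA synthetase that favours polyunsaturated chains, had the opposed order too (-0.26, adjusted p = 0.0280 in SUM149PT, and 0.88, adjusted p = 0.00152 in HCC1937).

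Of 10 genes of fatty acid oxidation, the opposing pathway, 7 were lower and 2 higher in SUM149PT CSCs, against 41.5% and 33.3% of all genes, with a median of -0.40, and 2 of 10 were lower in HCC1937 with a median of 0.040. ACADVL, the very long chain dehydrogenase, fell in both lines (-1.65, adjusted p = 8.06e-06, and -0.44, adjusted p = 0.0151), and CPT1A and CPT2, the carnitine shuttle of mitochondria, fell in SUM149PT (-1.18, adjusted p = 1.59e-05, and -1.44, adjusted p = 3.18e-05). The pair that rose in SUM149PT was HADHA and HADHB, the subunits of the trifunctional protein, singled out after their values were seen (0.89, adjusted p = 4.34e-05, and 1.004, adjusted p = 4.86e-05).

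Markers of cell state moved with the sorted fractions in both lines. All 5 breast epithelial markers fell in CSCs of SUM149PT and of HCC1937. Their summed level was 122, 127 and 125 FPKM in SUM149PT CSCs, 1686, 1637 and 1662 in SUM149PT non-CSCs, 503, 467 and 419 in HCC1937 CSCs, 1408, 1427 and 1216 in HCC1937 non-CSCs and 291, 276 and 290.1 in SUM159PT. The most abundant by group mean was KRT19 in SUM149PT, KRT18 in HCC1937 non-CSCs and SUM159PT, and KRT8 in HCC1937 CSCs. Of 5 basal or mesenchymal markers, 3 rose and 2 fell in CSCs of both lines: VIM, CDH2 and ZEB1 rose and the keratins KRT5 and KRT14 fell. Their summed level was 2044, 2221 and 2110.0 FPKM in SUM149PT CSCs, 369, 371 and 431 in SUM149PT non-CSCs, 1179, 1038 and 1006 in HCC1937 CSCs, 338, 409.6 and 358 in HCC1937 non-CSCs and 1096, 1086 and 1067 in SUM159PT. Most of it was VIM except in HCC1937 non-CSCs, where KRT14 had the highest mean. Both lists kept their directions across the lines but differed in size: all 5 epithelial markers had a negative line difference that passed, with a median of -2.21, and of the basal or mesenchymal markers 2 had a positive and 1 a negative one, and their part in the result was not tested.

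Markers of cells that a culture of a breast cancer line should not hold were not uniformly low. Of 3 leukocyte markers CD3E was at 0 in all 15 libraries and PTPRC at most 0.0986 FPKM, and only CD68, which tumour lines also express, was tested. It fell in SUM149PT, at 16.4, 16.2 and 15.96 FPKM against 48.1, 47.0 and 49.9. CD68 gave nearly all of the list's sum, which was 16.4, 16.2 and 15.96 FPKM in SUM149PT CSCs, 48.1, 47.0 and 49.9 in its non-CSCs, 42.8, 44.3 and 40.0 in HCC1937 CSCs, 41.4, 39.7 and 38.9 in its non-CSCs and 30.5, 34.0 and 31.2 in SUM159PT. All 3 endothelial markers fell in SUM149PT and 1 of 2 in HCC1937. They summed to 0.171, 0.162 and 0.157 FPKM in SUM149PT CSCs, 1.59, 1.83 and 1.71 in non-CSCs, 0.773, 0.695 and 0.660 and 0.969, 0.797 and 0.871 in HCC1937 CSCs and non-CSCs, and 0.0699, 0.0653 and 0.0804 in SUM159PT. VWF was the most abundant of them in SUM149PT non-CSCs and PECAM1 in the other groups, and CDH5 was at 0 in SUM159PT. These levels are below those of almost every member.

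Of 4 fibroblast markers, COL1A1, COL3A1 and PDGFRB rose and DCN fell in SUM149PT, and COL1A1, the only 1 tested, rose in HCC1937. Their sums were 236, 239 and 234 FPKM in SUM149PT CSCs, 66.6, 68.0 and 70.0 in non-CSCs, 11.4, 11.3 and 10.9 and 5.89, 6.94 and 7.63 in HCC1937 CSCs and non-CSCs, and 41.1, 46.3 and 44.0 in SUM159PT, with COL1A1 most abundant. Of 3 adipocyte markers, ADIPOQ was at 0 in all but 1 library, at 0.0146 FPKM, and PLIN1 and LPL fell in SUM149PT. The adipocyte sums were 0.936, 0.942 and 1.004 FPKM in SUM149PT CSCs, 6.80, 7.32 and 6.79 in non-CSCs, 0.430, 0.368 and 0.518 and 0.359, 0.542 and 0.207 in HCC1937, and 0.867, 1.30 and 1.17 in SUM159PT. LPL, lipoprotein lipase, was the most abundant in SUM149PT non-CSCs, at 6.05, 6.48 and 5.68 FPKM, and PLIN1 in the other groups. The part of these lists in the result was not tested.

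Proliferation markers were mixed. In SUM149PT 5 of 10 rose and 4 fell in CSCs, with a median of 0.41, and in HCC1937 1 of 10 rose, with a median of 0.0195. The summed level was 94.2, 99.2 and 96.4 FPKM in SUM149PT CSCs and 94.2, 87.1 and 91.5 in non-CSCs, a ratio of non-CSC to CSC of 0.941, and 615, 548 and 529 and 554, 585 and 528 in HCC1937. MCM2, of the replication helicase, fell in SUM149PT (-1.22, adjusted p = 1.49e-05), TOP2A and CCNB1, of mitosis, rose there (1.13, adjusted p = 7.96e-05, and 0.80, adjusted p = 0.000128), and RRM2, which makes deoxynucleotides, rose in HCC1937 (0.35, adjusted p = 0.0472) and fell in SUM149PT (-0.39, adjusted p = 0.00418). PCNA, the replication clamp, was the most abundant in HCC1937, at 184, 160.2 and 146 FPKM in CSCs and 178, 186 and 155 in non-CSCs. HCC1937 therefore held far higher levels of these markers than SUM149PT in both fractions, and this difference lies between lines, not fractions.

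Some members share sequence with other genes, which may add reads to them or take reads away. Pseudogenes listed in the table reached at most 2.07 and 2.30 FPKM for CYP51A1P1 and CYP51A1P2, 4.11 for HSD17B7P2 and 1.73 for SCDP1, and those of FDPS at most 0.234. HSD17B7P2 is of the same order as HSD17B7 itself, at 1.80, 2.28 and 2.15 FPKM in SUM149PT CSCs. ACAT2 shares 397 exon bases with TCP1, SREBF1 shares 556 with RAI1 and MVK shares 306 with MMAB, all on opposite strands. On the same strand, CYP51A1 shares 2844 exon bases, 79.4% of its own, with AC000120.2, which the expression table does not list. TM7SF2 shares 16 with VPS51 and FADS2 shares 49 with FEN1, also on the same strand.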

How the data were processed

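RNA sequencing values of 15 libraries in 5 groups of 3 were read as FPKM, which the authors computed and deposited. The submitters' processing notes name Bowtie2 and GRCh38, and the tool that computed FPKM and its annotation are not given in the sources used here. Depth per library is unknown. The 36 members were found by symbol. In R 4.3.3, limma 3.58.1 was fitted to log2(FPKM + 0.1) over genes averaging at least 0.1 FPKM, within each sorted line (6 libraries) and as an interaction over the 12 sorted libraries, with Benjamini-Hochberg adjustment over all genes tested. The fits were tested on simulated data with known changes. False calls stayed near the rate that the adjustment allows while spread was alike in both lines, and rose above it for the line difference when spread differed between lines. Part of the planted changes, mostly the smaller ones, was missed, more than first aimed for in some fits. SUM159PT was described and not tested. Tables and figures used Python 3.11.15, pandas 2.3.3 and matplotlib 3.10.9, GC content came from GENCODE release 29, and promoters from RefSeq on GRCh38.p14. Members named with full values, 23 in all, were up to 12 per line with the largest called fold change and no overlap of fractions, the 8 highest by mean FPKM, those called in opposite directions, and the 4 regulators; other lists gave up to 3 genes per line, of which 3 in all are left unnamed. Some other members have SUM149PT values only. Alternatives were pseudocounts of 0.01 and 1, no minimum or 1 FPKM, TPM, upper quartile and quantile scaling, replicate number as a block, a fit over all 15 libraries, limma with trend and robust settings, limits on fold change, leaving out each library, and removal of the GC trend, chosen after seeing the data. All but the limits on fold change are refits. For single members, the values with other minimums, trend and robust settings and all 15 libraries were also added after seeing the data. The members and lists were chosen with earlier results of these data known.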

Additional observations from a re-analysis of the deposited data

Results flagged for a closer look

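The fold change of CSCs against non-CSCs differed between SUM149PT and HCC1937 for 31 of 35 members tested, by the interaction term of limma. Of these, 28 differences were negative, against 33.0% of the 16451 genes tested, and 3 positive, against 28.1%. The calls of TM7SF2, AACS, ELOVL7 and SREBF2 were lost in some refits. Each difference is given here on the log2 scale as SUM149PT minus HCC1937. Among the mevalonate steps the difference was -0.969 for ACAT2, -0.983 for HMGCS1, -1.05 for MVD, -2.65 for IDI1 and -1.5 for FDPS. From squalene to cholesterol the difference was -1.06 for FDFT1, 0.421 for SQLE, -1.86 for LSS, -1.13 for CYP51A1, -0.629 for TM7SF2, -2.79 for MSMO1, -1.88 for NSDHL, -1.68 for HSD17B7, -1.26 for EBP and -2.01 for DHCR7. Among the regulators the difference was -3.84 for INSIG1, -2.64 for SREBF1 and -0.26 for SREBF2. In fatty acid synthesis the difference was -0.457 for ACLY and -3.78 for FASN. In desaturation and elongation the difference was -2.89 for SCD, -0.492 for ELOVL1, -4.8 for ELOVL2, -1.7 for ELOVL5, 1.2 for ELOVL6, 0.504 for ELOVL7, -3.41 for FADS1 and -4.96 for FADS2. In activation and transport the difference was -0.35 for AACS, -1.63 for ACSL3 and -0.759 for STARD4. Adjusted p-values of these differences ran over 4.87e-09 to 0.0334. Dixon's test of outlying samples needs at least 4 samples in a group and was not applied to groups of 3.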

How the results depend on the processing

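Member counts were recomputed under each alternative. Members higher in SUM149PT CSCs numbered 3, and 6 with the GC trend removed (37.1% of genes, against 33.3%), which was chosen after seeing the data; PMVK was added, and SREBF2 and SCAP were then on the other side of 0, at 0.16 (adjusted p = 0.0348) and 0.25 (adjusted p = 0.00467), and the cause was not tested. Members lower in SUM149PT CSCs numbered 29, 19 with a log2 fold change of at least 1 required and 17 with the study's limits (the same, with an adjusted p of at most 1e-04, taking its enrichment score for log2 fold change). Members higher in HCC1937 CSCs numbered 11, and 17 with quantile normalization (15.3% of genes, against 10.3%), where the cause was not tested. They numbered 2 with the fold limit, also at an unadjusted p of at most 0.05, and 0 by limma with the study's limits. Even CD24, the marker of the negative gate, missed the 1e-04 limit in that line, at -2.675 (adjusted p = 0.000128, limma). With 3 libraries against 3, the 0 under the study's limits therefore says little about the members. Members lower in HCC1937 CSCs numbered 4, 2 with the replicate block (12.2% of genes, against 15.3%), and 0 by limma with the fold limit or the study's limits. With the fold limit the count was also 0 at an unadjusted p of at most 0.05. The 0 under the study's limits says as little here, for the same reason. Positive line differences numbered 3, and 1 with either limit. These limits lower counts by construction. Of the 35 members tested, those of SUM159PT above all sorted libraries numbered 6, 1 after TPM rescaling and 4 with the GC trend removed. Those below numbered 18, 27 and 14. Of all genes 16.4%, 6.28% and 24.0% lay above and 39.8%, 53.5% and 23.8% below, and the cause was not tested.

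Leaving out 1 library gave 3 to 3 higher and 28 to 29 lower members in SUM149PT, against 30.3% to 32.5% and 38.7% to 39.8% of genes. In HCC1937 it gave 8 to 11 higher and 3 to 4 lower, against 6.73% to 8.15% and 10.7% to 15.3%. Line differences were positive for 2 to 4 members and negative for 26 to 28, against 26.1% to 28.9% and 30.8% to 32.8%. For SUM159PT, leaving out 1 library gave 7 to 7 above, with untested ACACA counted, and 18 to 19 below. Where an arm was left with fewer libraries, limma assumed a spread like that of the others. Over all refits, 29 of 35 members kept their sign and side of the threshold in SUM149PT, 20 of 35 in HCC1937 and 27 of 35 in the line difference. ELOVL2 was not tested at a minimum of 1 FPKM in SUM149PT and in the line difference.

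With replicate number as a replicate block the counts were 3 higher and 29 lower in SUM149PT, against 31.8% and 39.9% of genes. HCC1937 had 11 higher and 2 lower, against 7.45% and 12.2%. There were 3 positive and 28 negative line differences, against 27.0% and 31.7%. ELOVL7, at -0.81 (adjusted p = 0.0518), and ACSL3, at -0.37 (adjusted p = 0.0570), lost their HCC1937 calls. Among positive line differences ELOVL7, at 0.50 (adjusted p = 0.0615), was lost and SC5D, at 0.34 (adjusted p = 0.0275), gained. Replicate numbers gave no clear pairing of the fractions: after removal of group means, CSC and non-CSC libraries of the same number correlated at 0.088, 0.0226 and 0.08 in SUM149PT and at -0.0777, -0.0352 and -0.00886 in HCC1937. In SUM149PT, replicates 1 and 3 did correlate best with their own number in both directions. Replicate 2 and the HCC1937 replicates did not. FPKM without counts gives no measure of counting error, which limits ELOVL2 and ACACA most.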
